A study of Mus musculus with 16 samples.

Results

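The genes described here are 10 genes that mark T lymphocytes, measured by RNA-seq in islets of the 8 founder strains of the diversity outbred mouse population. They were chosen by name (Cd3d, Cd3e, Cd3g, Cd4, Cd8a, Cd8b1, Lck, Il7r, Gzmb and Ctla4), each matched to 1 of the 54146 genes in the tables, and each is protein-coding. The question is how their levels differ between the strains, and between the libraries of NOD. The 91 libraries belong to 10 of 129 (129S1_SvImJ), 14 of AJ (A_J), 18 of B6 (C57BL/6J), 14 of CAST (CAST_EiJ), 10 of NOD (NOD_ShiLtJ), 4 of NZO (NZO_HlLtJ), 5 of PWK (PWK_PhJ) and 16 of WSB (WSB_EiJ). All mice were inbred, were 26 weeks old and ate a high-fat diet, and both sexes were used in each strain. The RNA is whole-islet RNA, which holds every cell that came with the islets. Whether each library was 1 mouse is not stated in the sources used here. P-values measure the spread between libraries. In the strain tests this spread was a single estimate per gene shared by all strains fitted, not that of NOD alone.

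T cells recognise antigen with a receptor whose variable chains signal through the invariant CD3 chains, and the coreceptors CD4 and CD8 bind MHC class II and class I molecules on the cell that presents the antigen. The kinase LCK, held by the coreceptors, phosphorylates the CD3 chains and starts the signal. NOD mice are a classical model of autoimmune diabetes, in which T cells and other leukocytes gather around and within the islets, and females are affected more often than males. In the other founder strains spontaneous autoimmunity against the islets is not typical.

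The genes lie on 6 chromosomes of GRCm38. The 3 genes of the CD3 chains are neighbours on chromosome 9. Cd3g (ENSMUSG00000002033.14, chromosome 9, 44969572 to 44980431, minus strand) and Cd3d (ENSMUSG00000032094.8, 44981786 to 44987339, plus strand) point away from each other with 1355 bases between their starts, and Cd3e (ENSMUSG00000032093.7, 44998740 to 45009627, minus strand) lies 11401 bases beyond the end of Cd3d. Cd8b1 (ENSMUSG00000053044.8, chromosome 6, 71322788 to 71337494, plus strand) and Cd8a (ENSMUSG00000053977.13, 71373427 to 71379173, plus strand) are also neighbours, and Cd4 (ENSMUSG00000023274.14, 124864692 to 124888221, minus strand) is on the same chromosome. Lck (ENSMUSG00000000409.14) is at chromosome 4, 129548344 to 129573641, minus strand. Il7r (ENSMUSG00000003882.5) is at chromosome 15, 9505788 to 9530176, minus strand. Gzmb (ENSMUSG00000015437.5) is at chromosome 14, 56258838 to 56262260, minus strand, and Ctla4 (ENSMUSG00000026011.13) at chromosome 1, 60887000 to 60915832, plus strand. In the annotation Ctla4 overlaps the pseudogene Rpl18-ps1 on its own strand, Cd3e overlaps Gm48719 and Gm48720, and Lck overlaps Mir8119. Whether strand was used in counting is not given in the sources used here, so reads of overlapping genes cannot be told apart.

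RefSeq promoter windows (GRCm38.p6) were found for 8 of the 10 genes, with 2 windows for Lck, but not for Cd4 and Cd8b1. Each window holds 300 bases, 250 before and 50 after the start site. The 3 CD3 windows are shown because these genes moved together in all NOD libraries, and that of Gzmb because Gzmb moved least closely with them. Capitals mark matches on either strand to 4 short motifs, AGGAAG (ETS factors), TGTGGT (RUNX factors), CAGNTG (E-box) and CTTTGA (TCF and LEF factors). They read 5′ to 3′ along the strand of the gene. Cd3g is at chr9:44980382-44980681 (minus strand), Cd3d at chr9:44981536-44981835 (plus strand), Cd3e at chr9:45009562-45009861 (minus strand) and Gzmb at chr14:56262285-56262584 (minus strand).
Cd3g: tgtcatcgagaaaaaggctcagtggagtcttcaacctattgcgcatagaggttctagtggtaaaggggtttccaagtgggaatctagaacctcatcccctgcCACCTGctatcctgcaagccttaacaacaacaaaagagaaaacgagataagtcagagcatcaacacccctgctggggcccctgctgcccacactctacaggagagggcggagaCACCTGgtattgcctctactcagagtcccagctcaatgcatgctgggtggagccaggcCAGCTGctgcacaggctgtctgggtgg
Cd3d: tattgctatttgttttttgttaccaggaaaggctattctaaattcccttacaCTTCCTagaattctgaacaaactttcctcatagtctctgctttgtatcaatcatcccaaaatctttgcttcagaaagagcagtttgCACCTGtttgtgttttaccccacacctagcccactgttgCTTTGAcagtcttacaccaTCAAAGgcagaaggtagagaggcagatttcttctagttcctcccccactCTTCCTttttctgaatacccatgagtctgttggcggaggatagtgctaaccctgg
Cd3e: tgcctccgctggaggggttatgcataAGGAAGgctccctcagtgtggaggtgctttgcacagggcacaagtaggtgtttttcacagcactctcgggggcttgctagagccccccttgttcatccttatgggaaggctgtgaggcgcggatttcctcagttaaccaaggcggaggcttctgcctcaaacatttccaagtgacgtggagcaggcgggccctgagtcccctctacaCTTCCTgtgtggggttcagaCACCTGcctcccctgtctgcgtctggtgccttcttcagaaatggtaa
Gzmb: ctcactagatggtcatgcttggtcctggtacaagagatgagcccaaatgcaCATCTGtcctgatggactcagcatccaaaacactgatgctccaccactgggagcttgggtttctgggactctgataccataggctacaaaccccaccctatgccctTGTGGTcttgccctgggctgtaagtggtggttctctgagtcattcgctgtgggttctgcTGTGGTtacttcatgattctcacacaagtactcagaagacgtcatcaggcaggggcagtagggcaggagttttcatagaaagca

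An E-box was in each of the 9 windows, and 51.4% of the 32851 promoters of the same length hold one. Among the windows not shown, the ETS letters were in both of Lck and in those of Ctla4 and Il7r. In the windows shown they were in Cd3d and Cd3e, each with 2 matches, and not in Cd3g or Gzmb, and 35.4% of all promoters hold them. The nearest of these matches began 5 bases before the start site in Cd3d and 17 bases before it in Cd3e. The RUNX letters matched at 2 places in Gzmb and at none in the CD3 windows, against 16.8% of all promoters. They also matched in a window of Lck and in that of Il7r, not shown. The TCF and LEF letters matched at 2 places in Cd3d and at none in Cd3g, Cd3e and Gzmb, against 16% of all promoters. They also matched in the window of Ctla4, not shown. Matches are a description of these letters and were not tested as sites.

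Total expected counts, which are RSEM's estimates of reads per gene, ranged from 16928552 to 35196145 per library and from 21007055 to 33338574 in NOD. At these depths 3 counts amount to 0.0852 to 0.177 CPM (counts scaled by the library's total), which covers counting error only. In 12 libraries, 2 of them in NOD (NOD male 5 and NOD female 5), the counts of Xist and of Y-linked genes were opposite to the sex label. Libraries are named by strain, labelled sex and order of running number, as in NOD male 5. The running numbers of 129, NOD, NZO and PWK lie between 66 and 100 and those of AJ, B6, CAST and WSB between 1 and 65, so NOD was compared with each of these sets of strains separately. Against the second set, strain and number range cannot be told apart. Values in TPM (RSEM's relative transcript abundance, scaled for gene length and library total) were used for levels and for comparing genes, and upper-quartile normalised expected counts for tests.

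Each of the 10 genes was highest in NOD by its strain mean of normalised counts. Levels outside NOD were low for 9 of them, with strain medians from 0 to 0.89 TPM, and the kinase gene Lck was the exception. The 3 CD3 genes encode the signalling chains of the receptor. Cd3e had a mean of 26.6 TPM ± 30.4 (SD, n = 10) in NOD, and a lowest, median and highest value of 0.59, 17.9 and 97.97 TPM. Over the 81 libraries of the other 7 strains, Cd3e ranged from 0 to 4.61 TPM with a median of 0.1 TPM, and 17 of these libraries had no count. Cd3g had a mean of 40.7 TPM ± 45.8 (SD, n = 10) in NOD against a median of 0.14 TPM in the other strains, and Cd3d 15.7 TPM ± 18.6 (SD, n = 10) against 0.05 TPM. The ranges of NOD and of the other strains overlapped for all 3, with NOD male 2, NOD male 3 and NOD male 4 within the other strains, and 7 of 10 NOD libraries lay above every other library.

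**Figure D1:**
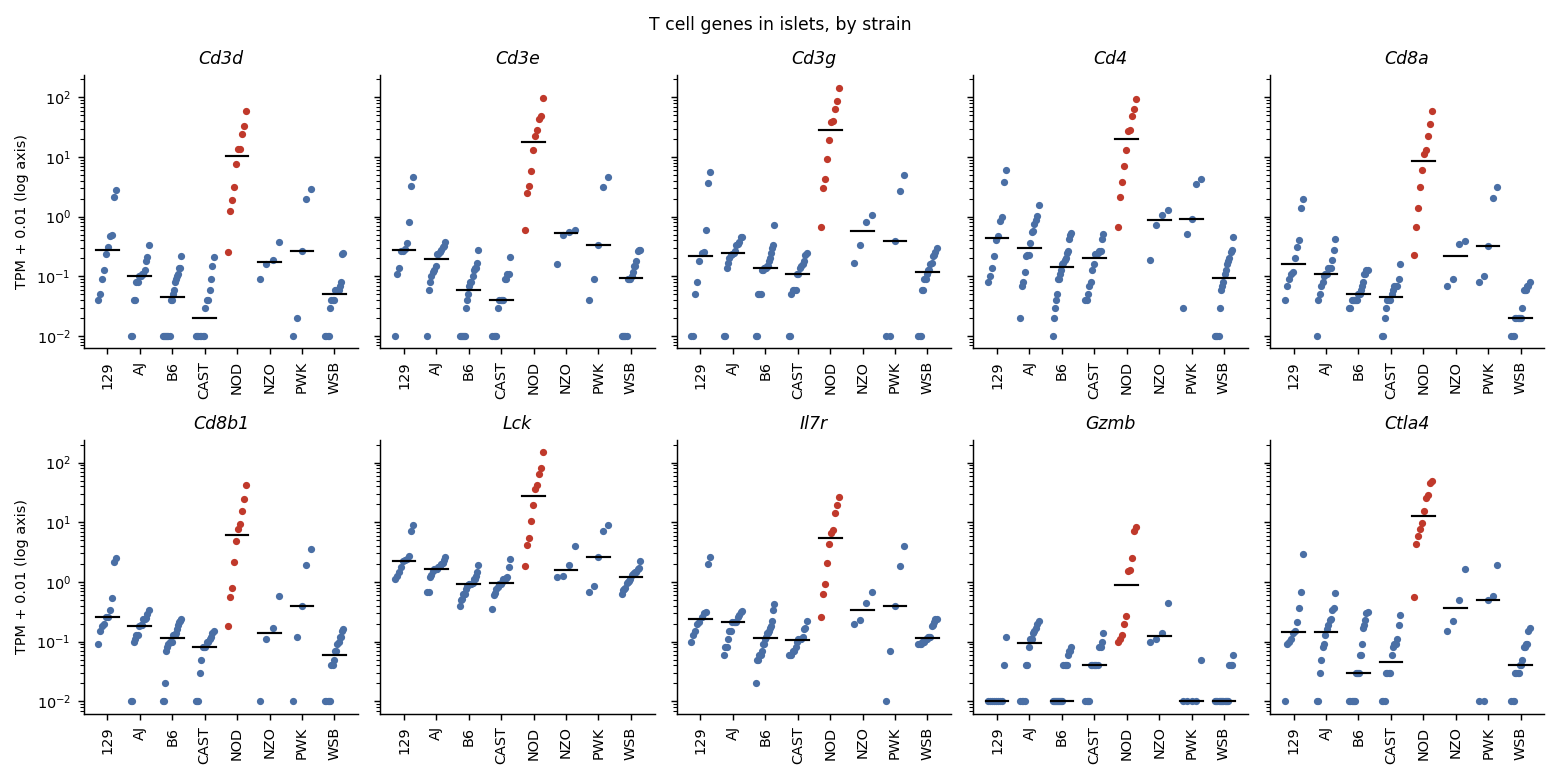
TPM of the 10 T cell genes in each of the 91 islet libraries (points, 1 per library, TPM + 0.01 on a log axis) by strain, with NOD in red and black bars at strain medians. NOD medians stand above those of the other strains in all panels, while the lowest NOD points overlap the other strains.

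The coreceptor genes followed. Cd4 had a mean of 28.96 TPM ± 31.2 (SD, n = 10) in NOD, from 0.66 to 93.9 TPM, and a median of 0.19 TPM in the other strains. Cd8a had a mean of 15.3 TPM ± 19.04 (SD, n = 10) in NOD and a median of 0.06 TPM elsewhere. Cd8b1, the second chain of the CD8 heterodimer, had 10.8 TPM ± 13.4 (SD, n = 10) against a median of 0.11 TPM. For both CD8 genes 6 of 10 NOD libraries, and for Cd4 7 of 10, lay above every library of the other strains.

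Lck was detected in all 91 libraries. Its strain medians outside NOD lay between 0.905 TPM in B6 and 2.6 TPM in PWK, and NOD had a mean of 41.4 TPM ± 46.4 (SD, n = 10). The lowest NOD library, at 1.83 TPM, was reached or passed by 19 of the 81 other libraries. Il7r, the alpha chain of the receptor for the T cell survival factor interleukin 7, had a mean of 8.18 TPM ± 8.90 (SD, n = 10) in NOD and a median of 0.13 TPM elsewhere, and 6 of 10 NOD libraries lay above all others.

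The remaining genes mark T cell states. Ctla4, an inhibitory receptor of activated and regulatory T cells, had the cleanest separation, with 9 of 10 NOD libraries above every other library. It had a mean of 19.3 TPM ± 17.4 (SD, n = 10) in NOD and a median of 0.07 TPM elsewhere. Gzmb, the cytotoxic protease granzyme B of activated CD8 T cells and NK cells, was the lowest of the 10 genes. Its mean was 2.20 TPM ± 3.08 (SD, n = 10) in NOD, 42 of the 81 other libraries had no count, and 5 of 10 NOD libraries lay above the highest other value, 0.44 TPM in NZO male 1.

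After NOD, the order of strain means was PWK, 129, NZO and AJ for 8 of the 10 genes, all but Gzmb and Ctla4. In Ctla4 NZO came before PWK and 129, and in Gzmb NZO and AJ came next and PWK last, with 1 expected count in its 5 libraries together. The ranges of every pair of neighbouring strains in this order overlapped, NOD and the second strain included, for each of the 10 genes. The second place of PWK rests on PWK male 1 and PWK male 3, and the mean of 129 is raised by 129 male 1 and 129 male 5, all described further on. The median normalised count of 129 was below that of NZO for Cd3e (7.17 against 11.5), though above it for Cd3d (5.12 against 3.84). NZO male 1 held 51.01 normalised counts of Ctla4 and 14.2 of Gzmb, against at most 19.4 and 3.78 in the other NZO libraries.

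All 10 genes differed between the 8 strains in the quasi-likelihood F test of edgeR, adjusted by Benjamini-Hochberg over 19718 genes, with adjusted p-values from 1.88e-56 for Cd3d to 3.42e-28 for Il7r. This test called 86.7% of all genes, so the count of genes alone says little. Against the mean of 129, NZO and PWK, all 10 were higher in NOD, where 29.6% of all genes were called higher. The median log2 fold change of the 10 was 4.87, against 0.03 over all genes tested. Gzmb had the largest log2 fold change, 5.70 ± 0.43 (SE), with few counts in 129 and PWK, and 5.10 to 6.20 when single libraries of NOD, NZO or PWK were left out. Ctla4 and Cd3g followed at 5.18 ± 0.45 and 5.18 ± 0.46. Cd3e reached 4.94 ± 0.42, Cd3d 4.88 ± 0.39, Cd4 4.86 ± 0.50 and Cd8a 4.85 ± 0.42. Cd8b1 (4.06 ± 0.40), Lck (3.93 ± 0.35) and Il7r (3.48 ± 0.41, adjusted p = 1.03e-11 in the edgeR test) had the smallest.

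Without 4 libraries of 129 and PWK in which Cd3e was above 2 TPM, the same contrast gave a log2 fold change of 6.73 for Cd3e, 7.12 for Cd3g, 6.11 for Cd8a, 6.61 for Ctla4 and 5.01 for Il7r. Since these libraries were left out for their Cd3e, larger values for Cd3e and the genes that move with it follow from that choice and are no support. Gzmb, which these libraries hardly contained, gave 5.92.

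Against the mean of AJ, B6, CAST and WSB, all 10 were higher in NOD, where 33.6% of all genes were called higher. The log2 fold changes ran from 5.35 ± 0.22 (SE) for Lck to 8.23 ± 0.30 for Cd3e, which is a 300-fold difference. Each of the 10 genes was also higher in NOD than in each of the 7 other strains taken singly, a pattern that 10.6% of all genes showed. The smallest of these 7 differences was that against PWK for 8 genes, with a log2 fold change from 2.69 ± 0.62 (SE) for Il7r to 4.63 ± 0.70 for Cd3g, and that against NZO for Gzmb (3.21 ± 0.56) and Ctla4 (5.09 ± 0.78).

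**Figure D2:**
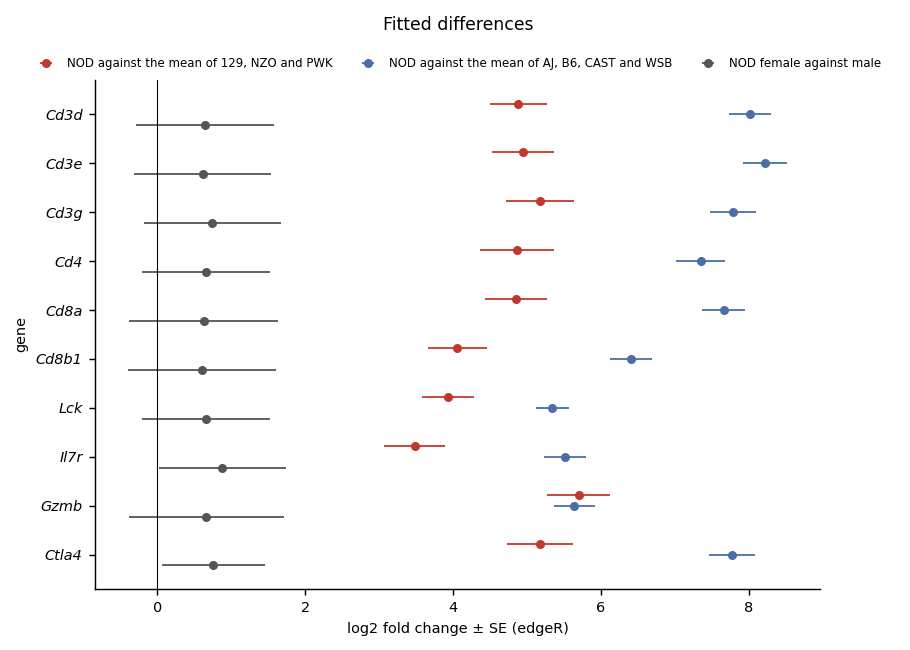
Log2 fold change of each gene (points) with its standard error (bars) for NOD against the mean of 129, NZO and PWK, NOD against the mean of AJ, B6, CAST and WSB, and NOD libraries labelled female against those labelled male. Both strain contrasts lie between 3.48 and 8.23, and the sex contrast lies between 0.60 and 0.88 with standard errors of 0.70 to 1.05. Standard errors were derived from the F statistic.

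Among the 81 libraries without NOD, all 10 genes again differed between strains, where 83.8% of all genes were called. With counts summed per sample Cd3g, Ctla4 and Il7r lost the call (adjusted p = 0.053, 0.059 and 0.065 in the edgeR test), and limma-voom lost Cd3g (adjusted p = 0.15). The calls did not all hold within number ranges either. In a fit of 129, NZO and PWK alone, which called 59% of genes, Gzmb was the only one of the 10 to differ (adjusted p = 0.00027 in the edgeR test), and it was highest in NZO. In a fit of AJ, B6, CAST and WSB alone with the number range as a term, which called 75.1% of genes, 6 of the 10 differed, namely Cd4, Cd8a, Cd8b1, Lck, Gzmb and Ctla4. For Cd3e the adjusted p-values of edgeR's test were 0.93 in the first fit and 0.072 in the second.

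The 10 NOD libraries spanned a wide range. Cd3e was 0.59 TPM in NOD male 2, 2.51 in NOD male 4, 3.29 in NOD male 3, 5.88 in NOD male 1 and 13.2 in NOD female 1. It was 22.7 TPM in NOD female 2, 27.8 in NOD female 3, 43.3 in NOD female 4, 49 in NOD female 5 and 97.97 in NOD male 5. The highest value was 166 times the lowest, and the ratio of highest to lowest lay between 81.4 (Lck) and 268 (Cd8a) for the 10 genes. The standard deviation of log2(normalised count + 1) over the NOD libraries was between 1.56 and 2.13 for the 10 genes, against a median of 0.32 over 14962 genes with a mean of at least 10 normalised counts in NOD and a 95th percentile of 1.48.

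The order of the NOD libraries by TPM was nearly shared. NOD male 5 was first, NOD female 5 second, NOD female 4 next and NOD female 1 the sixth for all 10 genes. NOD male 2 was lowest for 9 of the 10, all but Gzmb. By normalised counts Ctla4 was higher in NOD female 5 (1395) than in NOD male 5 (1271), and NOD female 1 (420) fell below NOD male 1 (498). Cd4 showed the same spread, with 0.66 TPM in NOD male 2, 2.15 in NOD male 4, 3.79 in NOD male 3, 7.01 in NOD male 1 and 13.04 in NOD female 1, then 28.5 in NOD female 2, 27.1 in NOD female 3, 49.2 in NOD female 4, 64.2 in NOD female 5 and 93.9 in NOD male 5. The members measured in the same libraries share depth and normalisation, and their agreement is a description over 10 libraries.

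**Figure D3:**
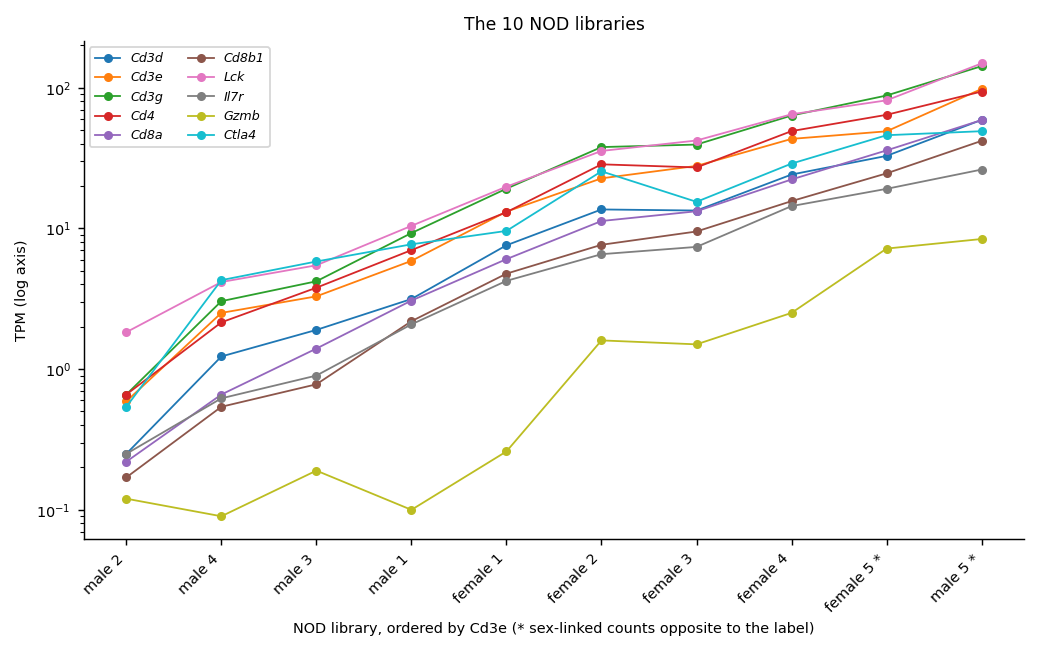
TPM (log axis) of the 10 genes in the 10 NOD libraries, ordered from left to right by Cd3e, 1 line per gene, with an asterisk at the libraries whose sex-linked counts oppose their label. Most lines rise from left to right nearly in parallel, Ctla4 less so (25.5 TPM in NOD female 2 and 15.5 TPM in NOD female 3), while Gzmb stays between 0.09 and 0.26 TPM in the 5 libraries lowest in Cd3e and lies between 1.5 and 8.41 TPM in the other 5.

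By the labels, the 5 female NOD libraries were not called different from the 5 male ones for any of the 10 genes, with log2 fold changes from 0.60 ± 1.00 (SE) for Cd8b1 to 0.88 ± 0.86 for Il7r and adjusted p-values in edgeR's test from 0.76 to 0.82. The test called 0% of 18638 genes (1442 had an unadjusted p under 0.05, none of the 10 among them), and DESeq2 called 12 genes. Cd3e was between 13.2 and 49 TPM in the libraries labelled female and between 0.59 and 97.97 TPM in those labelled male. The libraries labelled male thus held both the highest and the 4 lowest values. NOD male 5 and NOD female 5, whose sex-linked counts oppose their labels, were the highest and second highest. Without all 12 such libraries, Cd3e lay between 13.2 and 43.3 TPM in 4 female libraries and between 0.59 and 5.88 TPM in 4 male ones, with no overlap. This lack of overlap rests on leaving out NOD female 5. By its sex-linked counts that library would be male, and at 49 TPM it lay above these 4 female libraries. In that fit 8 of the 10 genes were called higher in females, all but Cd4 and Ctla4, where 15.2% of all genes were called, and the log2 fold change of Cd3e was 2.32 (adjusted p = 0.038 in the edgeR test). Without NOD male 5 alone 9 genes were called, where 21.6% of all genes were, and limma-voom with library weights called all 10, where 24.9% of genes were called. The result by label thus changed with the libraries kept and with the method.

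Because the level differed so much between libraries, the balance of the genes was read as ratios of TPM within a library, with exact 95% binomial (Clopper-Pearson) intervals that cover counting error only. The ratio of Cd3d to Cd3e, both parts of the same complex, stayed between 0.424 and 0.669 in the 10 NOD libraries, and that of Cd3g to Cd3e between 1.12 and 1.80. Cd8b1 to Cd8a lay between 0.557 and 0.818. These ratios spanned at most 1.6-fold, while the levels of these 5 genes spanned at least 166-fold. Cd8a to Cd3e, also among these genes, spanned 2.78-fold, from 0.263 to 0.732. TPM ratios also depend on the transcript lengths that RSEM assigned in each library. Some differences in these ratios were beyond counting error, as for Cd3d to Cd3e in NOD female 5 (0.622 to 0.719) and NOD female 3 (0.428 to 0.542).

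The balance of helper and cytotoxic lineage genes spanned 2.04-fold. Cd4 to Cd8a was 1.60 (interval 1.52 to 1.67) in NOD male 5 and 1.79 (1.71 to 1.88) in NOD female 5, the libraries highest in T cell genes. It was 2.53 (2.33 to 2.74) in NOD female 2, 2.71 (2.09 to 3.54) in NOD male 3 and 3.26 (2.36 to 4.56) in NOD male 4. The intervals of NOD male 5 and NOD female 5 do not overlap those of NOD female 2, NOD male 3 and NOD male 4. NOD male 2, lowest in Cd3e, was at 3.0 (1.526 to 6.333), which overlaps both. NOD female 3 was at 2.048 (1.879 to 2.235), which touches that of NOD female 5. NOD female 1, NOD female 4 and NOD male 1 lay between 2.155 and 2.283. Some leukocytes other than T cells also carry CD4, and the part of each cell type was not tested.

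Ctla4 to Cd3e also differed between NOD libraries. It was 0.501 (0.469 to 0.535) in NOD male 5, 0.556 (0.498 to 0.620) in NOD female 3 and 0.668 (0.619 to 0.720) in NOD female 4. It was 1.31 (1.09 to 1.58) in NOD male 1, 1.77 (1.36 to 2.31) in NOD male 3 and 1.71 (1.28 to 2.30) in NOD male 4. The latter 3 libraries held more Ctla4 for their Cd3e than the former 3 by amounts beyond counting error. NOD male 2, lowest in Cd3e, was at 0.915 (0.417 to 2.08) and NOD female 1 at 0.730 (0.639 to 0.833). NOD female 2, at 1.12 (1.03 to 1.23), and NOD female 5, at 0.938 (0.880 to 1.00), lay between, so the ratio did not follow the level of Cd3e in every library.

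Gzmb to Cd3e was 0.0170 (0.00348 to 0.0505) in NOD male 1 and 0.0198 (0.00898 to 0.0378) in NOD female 1. It was 0.0858 (0.0738 to 0.0993) in NOD male 5 and highest among the well-counted libraries in NOD female 5, at 0.147 (0.128 to 0.168). Relative to Cd8a, Gzmb was 0.201 (0.176 to 0.228) in NOD female 5 and 0.143 (0.123 to 0.165) in NOD male 5. NOD male 2 held too few counts to place, since the interval of its Gzmb to Cd3e ratio ran from 0.0368 to 0.754. Lck to Cd3e lay between 1.496 and 1.774 in 9 NOD libraries and was 3.10 (1.58 to 6.53) in NOD male 2.

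**Figure D4:**
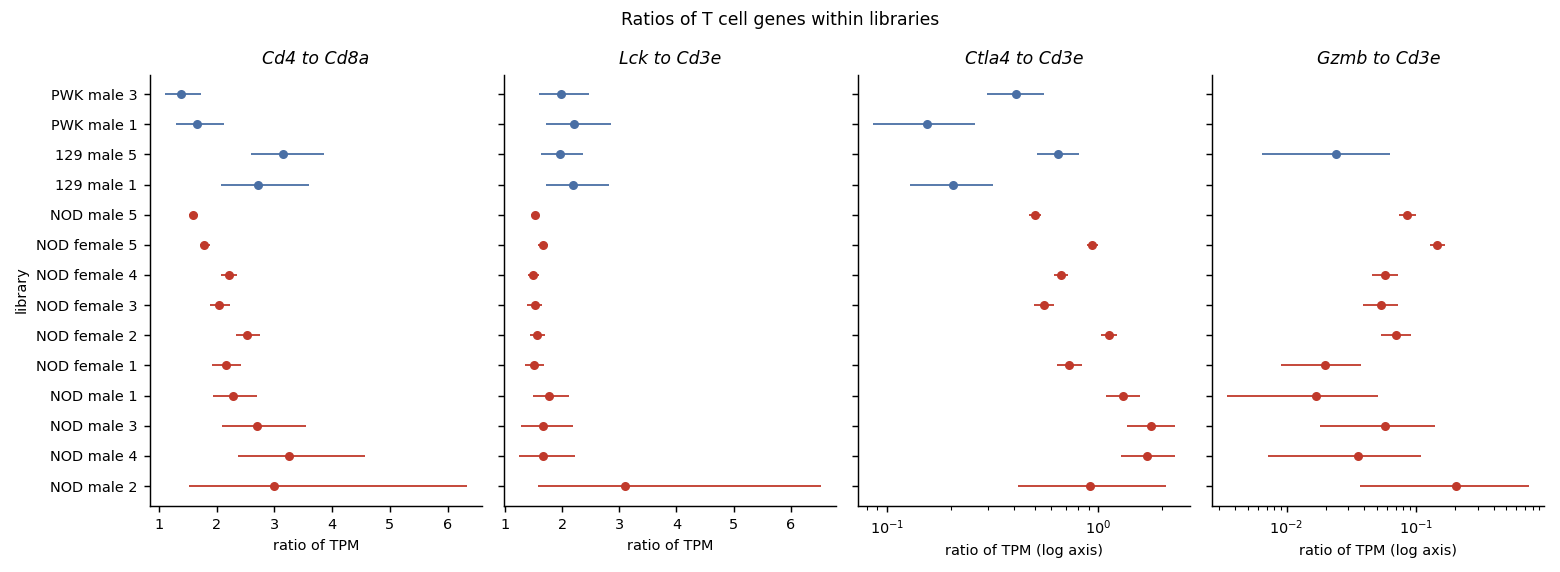
Ratios of TPM within a library for 4 pairs of genes (points) with 95% counting intervals (bars), for the 10 NOD libraries in red, from lowest to highest Cd3e upwards, and for 4 libraries of 129 and PWK in blue (3 of these have no Gzmb count). Cd4 to Cd8a is lowest among NOD libraries at 1.60 in NOD male 5, and Ctla4 to Cd3e is highest, at 1.77, in NOD male 3.

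Outside NOD, 4 libraries stood apart in T cell genes, 129 male 1, 129 male 5, PWK male 1 and PWK male 3. Cd3e was 3.23, 4.57, 3.18 and 4.61 TPM in them, in that order, against at most 0.79 TPM in the other 8 libraries of 129 and 0.33 TPM in the other 3 of PWK. Lck was between 7.01 and 9.12 TPM, and Cd4 between 3.46 and 6.11 TPM. These values fall between those of NOD male 2 and NOD female 1. Gzmb had no count in 3 of the 4, which allows up to 3 counts, and 4 expected counts in 129 male 5. The libraries were picked by Cd3e, so their levels are a description.

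The balance of genes in these 4 libraries was not that of NOD in every respect. Cd8b1 to Cd8a was between 0.914 and 1.52, by value above the 10 NOD libraries (at most 0.818), although the interval of PWK male 1 reached down to 0.654 and that of PWK male 3 to 0.880, while the intervals of NOD female 1 and NOD male 1 to NOD male 4 reached up to between 0.903 and 2.55. Il7r to Cd3e was between 0.572 and 0.879, by value above the NOD libraries (at most 0.424), although the interval of PWK male 1 reached down to 0.430 and those of NOD male 1 and NOD male 2 up to 0.441 and 1.00. Ctla4 to Cd3e was 0.154 (0.0861 to 0.260) in PWK male 1 and 0.204 (0.128 to 0.317) in 129 male 1, below every NOD library, as was PWK male 3 at 0.408 (0.297 to 0.556) by its value but not by its interval, and 0.646 (0.514 to 0.809) in 129 male 5, within the NOD range. The reference behind all tables is a single build, and how sequence differences between strains act on ratios across strains was not tested.

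Some marker lists of other cells were also higher in these 4 libraries than in the rest of their strains. The summed TPM of 6 lymph node stroma genes (Ccl21a, Cr2, Madcam1, Glycam1, Ccl19 and Cxcl13) was 86.4 to 151 in both 129 libraries, against 1.06 to 18.4 in the other 8 of 129. It was 85 to 137 in both PWK libraries, against 2.58 to 48.9 in the other 3, and 1 library of NZO reached 155. The summed TPM of 6 B cell and plasma cell genes was 16.4 to 41.8 in both 129 libraries against 2.33 to 7.11 in the rest of 129. In PWK the B cell sums of 24.9 and 60.1 overlapped those of the other 3 libraries (4.56 to 29.3), as did the macrophage sums (96.04 to 100.6 against 88.4 to 97.1), and in 129 the macrophage sums were 50.1 to 135 against 34.03 to 44.8. The 5 NK cell genes summed to at most 0.79 TPM in these 4 libraries. The part of other cells in these levels was not tested.

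The constant regions of the T cell receptor, which T cells join to their rearranged variable segments, moved with the members. Trac, the alpha chain constant region, was 67.1 TPM ± 77.9 (SD, n = 10) in NOD, from 2.37 to 247 TPM, and its median was 1.57 TPM in 129 and 3.11 TPM in PWK. Trbc2 was 90.4 TPM ± 104 (SD, n = 10) in NOD. Trdc, the constant region of gamma delta T cells, was low at 0.624 TPM ± 0.674 (SD, n = 10). These segments are not annotated as protein-coding and were not in the tests.

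A list of 56 other genes of T cell identity, signalling, migration and effector function gave the wider picture. Against the mean of 129, NZO and PWK, 52 were higher in NOD, none was lower and 4 were not called, with a median log2 fold change of 4.06, where 29.6% of all genes were called higher. Against AJ, B6, CAST and WSB, 53 were higher and none lower, with a median of 5.83, where 33.6% of all genes were called higher. The 8 with the largest log2 fold change in the first contrast are named here. Gzmk (6.74 ± 0.49 SE), Nkg7 (5.93 ± 0.41) and Ifng (5.64 ± 0.42) belong to cytotoxic and interferon-producing cells, and Il21 (5.91 ± 0.36) encodes a helper cytokine. Tigit (6.55 ± 0.37), Pdcd1 (5.84 ± 0.39) and Lag3 (5.07 ± 0.31) are inhibitory receptors, as Ctla4 is, and Cd7 was at 5.23 ± 0.36. Their levels were modest, with Tigit at 14.3 TPM ± 14.2 (SD, n = 10) and Pdcd1 at 6.66 TPM ± 7.70 (SD, n = 10) in NOD. Those not called included Tox, Skap1 and Zbtb7b, which were also found in strains low in CD3 (Skap1 at 52.7 TPM ± 3.39 and Zbtb7b at 21.6 TPM ± 1.39 in 129, SD, n = 10).

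Genes of other leukocytes were higher in NOD too. In the contrast with 129, NZO and PWK all 6 B cell and plasma cell genes, all 7 macrophage genes, all 5 dendritic cell genes, all 5 NK cell genes and all 6 lymph node stroma genes were higher in NOD. These counts stand beside 29.6% of all genes called higher. Of the acinar genes 5 of 7 were higher, and of the innate lymphoid genes 3 of 4 were higher and 1 was lower. One of these higher genes, Gata3, is also in the T cell list. The median summed TPM of the innate lymphoid genes was lower in NOD (7.81) than in any other strain. In the other lists 2 of 5 mast cell genes, 2 of 4 ductal genes and 1 of 4 neutrophil genes were higher, and 2 of 4 endothelial genes were higher and 2 lower, shares that do not set these lists apart from all genes. Of 5 beta cell genes none was higher and 1 was lower, and of 3 alpha cell genes none was higher and 2 were lower, beside 23.4% of all genes called lower. Fewer cells of a type and less RNA per cell cannot be told apart in whole-islet RNA, nor can more of either.

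Several of these lists were also higher in NOD libraries with more T cell RNA. From NOD male 2 to NOD male 5 the summed TPM rose from 13.9 to 1117 for B cell and plasma cell genes, from 50.9 to 2659 for macrophage genes, from 13.1 to 1635 for lymph node stroma genes and from 0.09 to 32.5 for NK cell genes. Lists of cells other than leukocytes were higher too, from 109 to 325 TPM for endothelial genes and from 54.3 to 164 TPM for ductal genes. Acinar genes were at 202200 TPM in NOD male 2 and 36700 TPM in NOD male 5, and ranged from 25540 TPM in NOD female 2 to 279200 TPM in NOD male 1. Beta cell genes followed no order of Cd3e, from 198900 TPM in NOD male 1 to 409600 TPM in NOD female 2. The part of acinar RNA and of other leukocytes in the levels of the 10 genes was not tested.

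**Figure D5:**
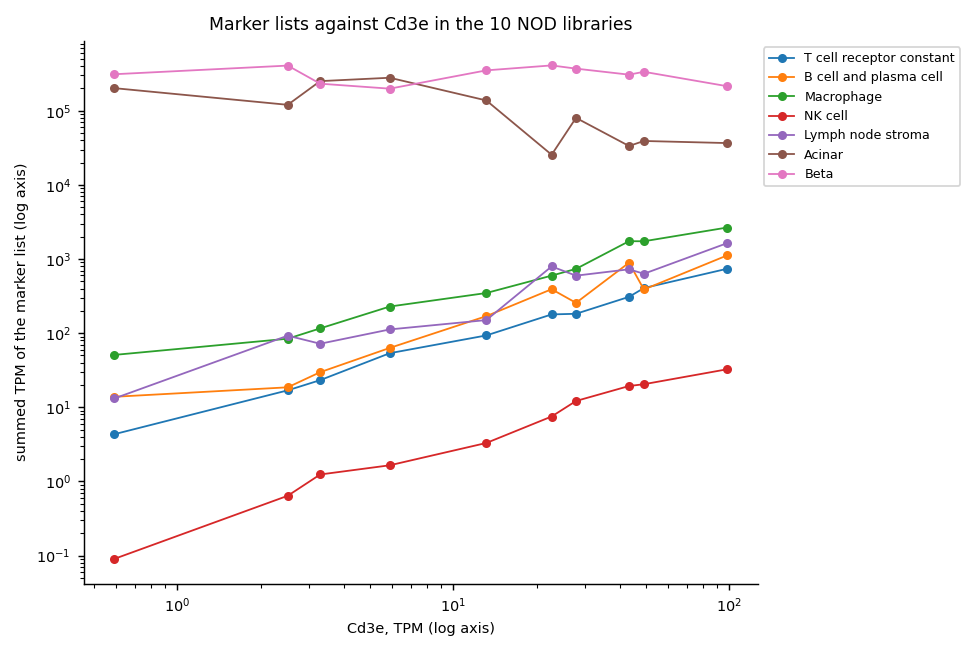
Summed TPM of 7 marker lists (log axis) against Cd3e in TPM (log axis) in the 10 NOD libraries, 1 line per list. The leukocyte and lymph node stroma lists are higher in libraries with more Cd3e, from 0.09 to 32.5 TPM for the NK cell list, while the acinar list is at 202200 TPM in the library lowest in Cd3e and 36700 TPM in the highest, and the beta cell list shows no trend.

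The genes closest to the mean of Cd3d, Cd3e and Cd3g were listed by Pearson's r of log2(normalised count + 1), among 13180 protein-coding genes with a mean of at least 1 TPM in NOD. Over the 10 NOD libraries, which share depth and composition, the closest were Itgb7 and Gimap9 (r = 0.999 for both), Tcf7, Lat, Ltb, Zap70, Cd6, Pglyrp2, Acap1 and Ctsw (r down to 0.997). Several of them are T cell genes, among them the signalling genes Lat and Zap70 and the transcription factor gene Tcf7. Over all 91 libraries, where NOD sets most of the spread, the closest were Arhgap45 (r = 0.952), Itgb7, Ptprc, Dock2, Lsp1, Cd28, Ikzf1, Myo1g, Grap2 and Rac2 (r = 0.940), most of them genes of leukocytes in general. Among the 10 members themselves, the least close to this mean over the NOD libraries were Gzmb (r = 0.831) and Ctla4 (r = 0.954), and the other 5 outside the CD3 genes had r of at least 0.992.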

How the data were processed

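RNA-seq of islets from 8 mouse strains was read from 91 tables, 1 per library, each belonging to 1 of 16 samples of a strain and a sex by the labels. The authors quantified reads with RSEM and GENCODE vM18, and per the labels on mm10. They deposited expected counts, which are not normalized between libraries, and TPM, a relative abundance with a fixed total per library. The RSEM version and the read filters are not given in the sources used here. The tables' identifiers were matched to GENCODE M21 (GRCm38), 54079 of 54146.

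Rounded expected counts entered edgeR (4.0.16, under R 4.3.3) and its quasi-likelihood F test after upper-quartile normalization, for 19718 protein-coding genes of chromosomes 1 to 19 and X with a total above 0. The model held strain and sex over all libraries, and the sex contrast in NOD was fitted on its 10 libraries. Within a fit all strains shared a single estimate of the spread per gene, though the spread was unequal. For Cd3e the SD of log2(normalized count + 1) was 1.975 in NOD and 0.839 in CAST. Standard errors (SE) are the absolute log2 fold change over the square root of F. They follow the shared estimate and may understate the spread of NOD. P-values were adjusted by Benjamini-Hochberg over all genes, and values under 0.05 were called. Normalized counts rescale each library by its effective size over the mean effective size. Tests were first tried on simulated data.

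The members and gene lists were chosen with earlier results of these data known. The text names all 10 members, the 8 other T cell genes with the largest log2 fold change among those called in the first contrast, any that fell, and the 10 genes closest to the CD3 mean, while genes of other lists were named and the T cell genes named as not called were chosen after their values were seen. Alternatives were TMM and median-ratio scaling, filterByExpr, the study's filter (genes with the lowest 10% variance removed, non-zero counts in 85% of libraries), DESeq2 1.42.0, voom with library weights (limma 3.58.1), no sex term, 1 coefficient per strain and sex, sums per sample, subsets of strains, and fits without single libraries of NOD, NZO and PWK or without those with opposite sex-linked counts. Leaving out 4 libraries of 129 and PWK was chosen after seeing the data.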

Additional observations from a re-analysis of the deposited data

Results flagged for a closer look

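Levels were screened in 40 groups of 4 to 10 libraries (the 10 genes in 129, NOD, NZO and PWK) for a library far from the rest of its strain. In all, 5 values were marked. The nominal rate of the screen, about 1 of 20 groups, assumes normally distributed values and separate groups. It does not hold for skewed TPM with zeros in genes that share libraries. Cd3e in NOD male 5, at 97.97 TPM, lay far above the next library, at 49 TPM. Ctla4 in 129 male 5, at 2.95 TPM, lay above the next 129 library, 129 male 1, at 0.66 TPM. The other 3 are Gzmb values of few counts. Gzmb was 0.11 TPM in 129 male 5 (4 expected counts) against 0.03 TPM in the next, and 0.04 TPM in PWK female 1 (1 expected count) against 0 in the other 4 libraries of PWK. In NZO male 1 Gzmb was 0.44 TPM (12 expected counts) against 0.13 TPM in the next library. NZO male 1, which held both Xist and Y-linked counts, also had the highest sums of its strain for the T cell list (181 TPM), T cell receptor constant regions (8.81 TPM), NK cell (3.65 TPM), macrophage (238 TPM), dendritic cell (10.9 TPM), neutrophil (11.1 TPM) and ductal genes (806 TPM), and their part in its Gzmb was not tested.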

How the results depend on the processing

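Of 1334 values of 54 results under 33 alternatives, 1273 kept their direction and side of the threshold, among them all 580 fold changes of single members against the other strains (log2 fold change 2.55 to 8.51). The filter of the study, which asks for non-zero counts in most libraries, left 5 of the 10 genes (Cd3g, Cd4, Cd8a, Lck and Il7r), so 5 were called in the strain effect and against each set of strains, and 4 among strains without NOD. Without the libraries of opposite sex-linked counts, 1359 genes in place of 2090 were higher in NOD than in each other strain. Among strains without NOD, 6 members were called in AJ, B6, CAST and WSB alone and 1 in 129, NZO and PWK alone. In the NOD sex contrast, members called went from 0 to 10 with limma-voom, 8 without libraries of opposite counts and, leaving out single NOD libraries, 0 to 9. Genes called went from 0 to 12 with DESeq2, 315 with 1 coefficient per strain and sex, 2808 without libraries of opposite counts and 4645 with limma-voom, and from 0 to 4005 leaving out single libraries. The Gzmb contrast, 0.66 on the log2 scale, ran from -0.093 without NOD female 5 to 3.50 without NOD male 5. The cause of these changes was not tested. No paired analysis was possible because the labels give no replicate numbers that strains share.

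Depth limits Gzmb most, with a median of 26.5 expected counts in NOD and 0 in the other strains. Among the contrasts of NOD with single strains, standard errors were widest against NZO, with 4 libraries, for every gene but Gzmb. For Gzmb the standard error was 0.86 against PWK and 0.56 against NZO. Strain and number range cannot be told apart where NOD is compared with AJ, B6, CAST and WSB.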
